A study of Homo sapiens with 8 samples.

Results

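The HOX genes encode homeodomain transcription factors that give cells along the body axis their positional identity. The human genes stand in 4 clusters, HOXA on chromosome 7, HOXB on chromosome 17, HOXC on chromosome 12 and HOXD on chromosome 2, and genes of the same number in different clusters are paralogs. Within a cluster the low-numbered genes are expressed towards the head and the high-numbered genes towards the tail and the ends of the limbs, and adult mesenchymal cells keep a pattern of HOX expression that reflects where they came from. Polycomb complexes hold HOX genes silent outside their domain, trithorax complexes keep them active, and CTCF-bound insulators separate active from silent stretches of a cluster.

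Open chromatin at 38 HOX genes, of 19970 protein-coding genes on chromosomes 1 to 22 and X, was examined in U2OS, a human osteosarcoma cell line. The genes were chosen by name and by position and not by any measured value, though with earlier results of these data known. They comprised 10 genes of HOXA (HOXA2 to HOXA7, HOXA9, HOXA10, HOXA11 and HOXA13), 10 of HOXB (HOXB1 to HOXB9 and HOXB13), 9 of HOXC (HOXC4, HOXC5, HOXC6 and HOXC8 to HOXC13) and 9 of HOXD (HOXD1, HOXD3, HOXD4 and HOXD8 to HOXD13). A gene was counted as having a promoter peak in a library when a peak lay within 1 kb of any of its annotated transcription start sites (TSSs). Each cluster was also taken whole, from its first to its last listed gene plus 10 kb on either side, and peaks of the 8 libraries that overlapped were joined into 100 regions, of 52105 regions in the whole genome.

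The libraries were made by FAIRE-seq, in which crosslinked, sheared chromatin is extracted with phenol so that DNA free of nucleosomes is recovered, and the study used them to ask how chromatin opens after interferon gamma (IFNγ) with and without ZBTB48, a zinc finger protein that binds telomere repeats and some promoters. There were 2 wild type clones (WT_4 and WT_5) and 2 clones with a knockout (KO) of ZBTB48 (KO_C5 and KO_D2), each given as 1 untreated library and 1 library after 250 U/ml IFNγ. All are descended from the same cell line, each KO line is a single clone, and how the edit was made in these clones is not given in the sources used here. With 2 clones per genotype, an exact permutation test of any single value could not reach a two-sided p below 0.333, so values are compared below with the spread between clones. The peak lists held between 16730 and 37533 peaks and carried no read counts, so the depth behind a value is known only through the pileup of fragments at a summit. A gene without a peak had no site past the threshold of the peak caller, which does not show that its promoter was closed.

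The cell identity in the labels was checked first. Of 8 genes fixed as markers of osteosarcoma and mesenchymal cells, VIM, COL1A1, FN1, CDH2 and RUNX2 had a promoter peak in every library, SPARC in 5, TWIST1 in 1 and COL1A2 in none. These 5 of 8 (62.5%) compare with 52.1% of all coding genes. Of 5 epithelial markers EPCAM had a peak in all 8 libraries. No lymphoid marker of the list had a peak in all 8, and none of 3 liver markers had a peak in any. The ZBTB48 promoter had a peak in 8 of 8 libraries, which does not check the edit.

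The sequences below show promoters with and without a called peak, for their base composition. The first 4 are RefSeq promoters (GRCh38.p14, 250 bases before to 50 after the start, 5′ to 3′ on the strand of the gene) with CG dinucleotides in capitals. HOXA4 (chr7:27130708-27131007, minus strand) and HOXA13 (chr7:27200042-27200341, minus strand) belong to genes with a promoter peak in all 8 libraries. HOXD10 (chr2:176116528-176116827, plus strand) and HOXD13 (chr2:176092471-176092770, plus strand) belong to genes with a peak in none.

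HOXA4: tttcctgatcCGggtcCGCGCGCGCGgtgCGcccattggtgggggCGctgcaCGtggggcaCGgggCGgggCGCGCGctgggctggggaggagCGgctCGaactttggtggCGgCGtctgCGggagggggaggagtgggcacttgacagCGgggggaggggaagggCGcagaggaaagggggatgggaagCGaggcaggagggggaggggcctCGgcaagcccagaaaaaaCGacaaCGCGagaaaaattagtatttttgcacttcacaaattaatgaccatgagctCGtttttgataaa
HOXA13: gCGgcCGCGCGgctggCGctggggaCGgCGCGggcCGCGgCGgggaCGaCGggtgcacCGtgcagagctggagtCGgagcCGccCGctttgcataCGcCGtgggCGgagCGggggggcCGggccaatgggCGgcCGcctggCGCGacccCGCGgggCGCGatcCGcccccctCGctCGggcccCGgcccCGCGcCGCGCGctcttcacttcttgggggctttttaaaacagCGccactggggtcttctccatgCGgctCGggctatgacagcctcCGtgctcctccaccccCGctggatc
HOXD10: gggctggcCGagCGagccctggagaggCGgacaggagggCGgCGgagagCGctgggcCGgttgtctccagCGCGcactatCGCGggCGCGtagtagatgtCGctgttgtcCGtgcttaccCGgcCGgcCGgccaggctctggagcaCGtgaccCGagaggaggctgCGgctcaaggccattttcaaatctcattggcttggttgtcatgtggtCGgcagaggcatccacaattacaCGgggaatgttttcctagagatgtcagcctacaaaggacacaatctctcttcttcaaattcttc
HOXD13: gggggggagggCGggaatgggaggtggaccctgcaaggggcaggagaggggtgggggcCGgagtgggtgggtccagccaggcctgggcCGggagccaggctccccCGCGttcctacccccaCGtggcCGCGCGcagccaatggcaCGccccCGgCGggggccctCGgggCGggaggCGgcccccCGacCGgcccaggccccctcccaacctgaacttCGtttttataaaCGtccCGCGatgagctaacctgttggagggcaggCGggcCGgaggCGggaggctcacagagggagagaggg

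These stretches hold 27 CG dinucleotides at HOXA4, 44 at HOXA13, 23 at HOXD10 and 24 at HOXD13, against a median of 14 over 35097 promoters of the same length. The GC content was 63.3%, 76.3%, 60% and 74% in the same order, so the promoters without a peak were CG-rich as well. The table of promoters held 20 of the 38 genes.

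The next sequences are 300 bp around the mean summit of a pair of regions over 1 kb from any named TSS, on the plus strand of GRCh38, with matches to a core motif of CTCF, searched on either strand, in capitals. One lies between HOXA7 and HOXA9 (chr7:27160995-27161294, peaks in 7 libraries) and the other in an intron of HOXD3 (chr2:176140509-176140808, peaks in all 8).

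HOXA7-HOXA9: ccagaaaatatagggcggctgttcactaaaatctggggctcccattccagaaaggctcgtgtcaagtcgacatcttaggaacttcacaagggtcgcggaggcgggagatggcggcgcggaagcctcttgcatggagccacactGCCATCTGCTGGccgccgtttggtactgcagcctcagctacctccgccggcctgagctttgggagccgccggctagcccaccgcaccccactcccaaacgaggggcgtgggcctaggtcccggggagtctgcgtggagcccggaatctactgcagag
HOXD3 intron: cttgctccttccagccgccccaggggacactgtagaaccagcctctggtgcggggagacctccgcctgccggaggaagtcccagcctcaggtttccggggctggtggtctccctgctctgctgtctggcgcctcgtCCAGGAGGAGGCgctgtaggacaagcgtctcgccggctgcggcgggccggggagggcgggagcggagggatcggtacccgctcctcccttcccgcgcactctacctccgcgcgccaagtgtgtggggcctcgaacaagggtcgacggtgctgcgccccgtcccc

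The core was found in 3 of the 22 HOX cluster regions present in all 8 libraries (13.6%), against 20.7% of all 11551 such regions in windows of this length. The telomere repeat unit TTAGGG, searched on both strands, was found in 1 of the 22 (4.55%), against 6.35% of the 11551. A match to these letters is not evidence of binding. The 22 windows had a median GC content of 67.8% and a median of 27.5 CG dinucleotides, against 69.7% and 31 over all 11551, while the 78 HOX regions present in 1 to 7 libraries had a median GC content of 63.2%.

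The clusters also carry microRNA genes, and mature RNAs of this kind (RefSeq) are known to target HOX transcripts. They are shown with the seed, bases 2 to 8, in capitals, because miR-196a and miR-196b share it while coming from different clusters.

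hsa-miR-196a-5p: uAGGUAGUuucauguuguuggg
hsa-miR-196b-5p: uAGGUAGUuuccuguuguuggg
hsa-miR-10a-5p: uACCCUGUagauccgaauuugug

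The start of MIR196B, in HOXA, had a peak in both libraries of WT_4 and in no other, at a fold enrichment of 5.2 to 5.98. MIR196A1, MIR196A2 and MIR10A had no peak within 1 kb of their start in any library.

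Promoters were then compared by cluster and by paralog group. A peak stood at 16 of the 38 HOX promoters in all 8 libraries, at 16 in 1 to 7 libraries and at 6 in none. Among all protein-coding genes these shares were 52.1% for every library and 26.2% for none. The middle class, open in 1 to 7 libraries, held 16 of 38 HOX genes and 4342 of 19970 coding genes. HOXA had the most open promoters, with 8 of 10 genes at 8 libraries and none without a peak, and the remaining HOXA3 and HOXA2 at 7 and 2 libraries. HOXB had 2 of 10 genes at all 8 libraries and HOXC 2 of 9. HOXD divided most sharply, with 4 of 9 genes at 8 libraries, 3 at none and only HOXD4 and HOXD11 between, at 1 and 2 libraries. Which start is counted mattered: with only the start of the canonical transcript, 13 genes were open in every library and 11 in none. The 11 include HOXA3, HOXA6, HOXB3, HOXC6 and HOXD11, whose peaks all lay at other starts.

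**Figure D1:**
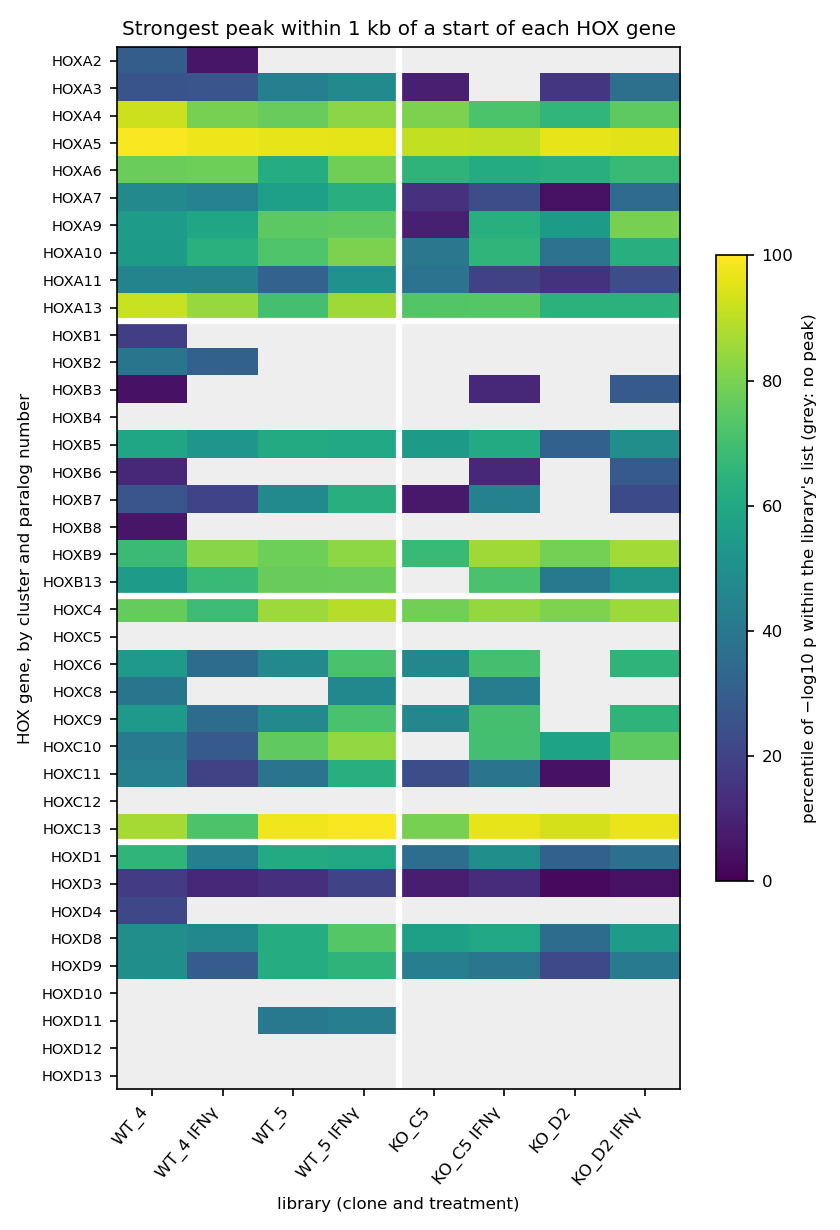
Strength of the strongest promoter peak of each of the 38 HOX genes in each of the 8 libraries, as the percentile of its −log10 p within that library's peak list (colour), with genes down the side by cluster and libraries across. Grey cells have no peak within 1 kb. HOXA is filled in nearly every library, while HOXB4, HOXC5, HOXC12, HOXD10, HOXD12 and HOXD13 are empty throughout.

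The anterior paralogs (groups 1 to 4) include HOXA2 and HOXB1, known for patterning the hindbrain, and 4 of these 11 genes had a peak in all 8 libraries (HOXA4, HOXC4, HOXD1 and HOXD3). HOXB1 and HOXD4 had a peak in 1 library each, HOXA2 and HOXB2 in 2, HOXB3 in 3 and HOXB4 in none. In the central groups 5 to 8, 5 of 11 were open in all 8 (HOXA5, HOXA6, HOXA7, HOXB5 and HOXD8), and HOXC5 was without a peak. In the posterior groups 9 to 13, which include the limb genes HOXA13 and HOXD13, 7 of 16 were open in all 8 (HOXA9, HOXA10, HOXA11, HOXA13, HOXB9, HOXC13 and HOXD9) and 4 had no peak (HOXC12, HOXD10, HOXD12 and HOXD13). Paralogs of one group often differed. Group 9 had a peak in 8 libraries at HOXA9, HOXB9 and HOXD9 and in 7 at HOXC9, whereas group 10 had 8 at HOXA10, 7 at HOXC10 and 0 at HOXD10. Group 13 had 8 at HOXA13 and HOXC13, 7 at HOXB13 and 0 at HOXD13.

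The median HOX promoter peak was weaker than the median over coding genes. The median fold enrichment of the strongest promoter peak, which is the ratio of the summit pileup to a local background, lay between 9.93 and 23.8 at HOX genes and between 17 and 33.2 at all protein-coding genes with a peak, and the HOX median was the lower in all 8 libraries. Ranked within its own list by −log10 p, the median HOX peak stood at the 38.8 to 71.3 percentile and the median coding peak at the 65.6 to 81.1 percentile. Between 4 and 7 HOX genes per library exceeded the coding median. Over 195 pairs of a gene and a library with a peak, 152 had one within 1 kb of the canonical start. In 137 pairs the summit itself was that near, at a median of 52 bp upstream (distance −52), with 32.1% downstream.

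Across HOXA the strongest promoter was that of HOXA5 (ENSG00000106004.5, chr7:27141052-27143681, minus strand), a gene known for its role in lung and thoracic development. Its fold enrichment was 97.1 in the untreated and 50.2 in the IFNγ library of WT_4, 46.9 and 56.4 in WT_5, 34.5 and 30.1 in KO_C5 and 40.1 and 29.2 in KO_D2. All 4 WT values lay above all 4 KO values, with summits at −205 to −171 bp from the start (upstream), and the mean percentile was 95.2. These values are as deposited, and such a separation was seen at 8 of 22 HOX regions and at 22.8% of all 11551 regions found in all 8 libraries. Centred on the median of each library it was seen at 3 of 22 and 5.95%, and HOXA5 was not among the 3, since its lowest WT value, 0.61 on the log2 scale, lay below 3 of the 4 KO values. The reverse was seen at no HOX region, against 0.0779% of all regions as deposited and 5.87% centred. The local background under this peak was also higher in the KO libraries, at 3.19 to 5.54 fragments against 2.15 to 3.09, while the summit pileups overlapped, with 159 to 190 fragments for KO and 157 to 320 for WT libraries.

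HOXA4, whose promoter is printed above, had a fold enrichment of 68.6 untreated and 28.2 with IFNγ in WT_4, 20.9 and 32.7 in WT_5, 26.2 and 17.8 in KO_C5 and 17 and 15.4 in KO_D2. The untreated WT_4 value stood far above the rest, and the genotypes overlapped. Its summits lay at −238 to −206 bp from the start, within the printed bases. At HOXA13, a gene of digit and urogenital development, fold enrichment ran from 16.3 to 67.6 in WT and from 8.78 to 15.9 in KO as deposited, without overlap, whereas the centred values overlapped, at −0.67 to 0.97 and −0.98 to −0.38. HOXA7, by contrast, was open but weak, at 9.82 to 13.3 in WT and 4.07 to 5.13 in KO.

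In HOXB the posterior gene HOXB9 (chr17:48621156-48626358, minus strand) had fold enrichments of 27.6 and 31.8 in WT_4, 23.4 and 35.3 in WT_5, 20.9 and 36.8 in KO_C5 and 28.5 and 27.7 in KO_D2, each untreated and then with IFNγ. These overlapped fully between WT and KO. HOXB5 had 21.1 and 14.9 in WT_4, 14.1 and 14.3 in WT_5, 14.8 and 16.8 in KO_C5 and 9.45 and 10.1 in KO_D2, and KO_D2 was the lowest clone on these deposited values. The summits of both genes lay upstream of the start, at −349 to −298 bp for HOXB9 and −308 to −279 bp for HOXB5. HOXB13, a gene known for its role in the prostate, at the far end of the cluster, had a peak in 7 libraries and none in untreated KO_C5.

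HOXC13, a gene of hair follicles and nails, had the strongest promoter peak of HOXC. Its fold enrichment was 56.9 untreated and 24.3 with IFNγ in WT_4, 66.5 and 99 in WT_5, 27.8 and 51.6 in KO_C5 and 41.4 and 41.2 in KO_D2. The values of WT_4 and WT_5 moved in opposite directions with IFNγ and the genotypes overlapped. The HOXC4 peak lay near an alternative start far upstream of the canonical one, which itself had a peak in 1 library. There the fold enrichment was 39.9 and 22.8 in WT_4, 34 and 50.5 in WT_5, 26.6 and 29.3 in KO_C5 and 25.3 and 23.2 in KO_D2, again without separation of WT and KO. The strongest peak of HOXC6 and of HOXC9 was the same one, and HOXC9 had a peak at its own canonical start in 5 libraries.

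In HOXD the open genes were HOXD1, HOXD3, HOXD8 and HOXD9. HOXD8 had fold enrichments of 14.3 and 13.1 in WT_4, 15 and 26 in WT_5, 16.5 and 16.8 in KO_C5 and 10.7 and 12.1 in KO_D2, with overlap between WT and KO. Its peak was broad, between 1307 and 1472 bp in WT. HOXD1 had 27.9 and 11.8 in WT_4, 14.9 and 15.3 in WT_5, 7.88 and 10.7 in KO_C5 and 8.31 and 6.9 in KO_D2, so that every WT value was above every KO value as deposited. The centred values overlapped, at −1.28 to −0.31 in WT and −1.39 to −1.13 in KO. HOXD3 was open in every library, with a fold enrichment of no more than 5.57. In 7 of them its strongest peak lay at an alternative start, and in the IFNγ library of KO_D2 the 1 peak lay at the canonical start.

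Genotypes were compared next. WT libraries had 31 and 25 HOX promoters with a peak in WT_4 (untreated and IFNγ) and 24 and 25 in WT_5, and KO libraries had 21 and 25 in KO_C5 and 20 and 24 in KO_D2. WT clones averaged 26.2 ± 2.47 genes and KO clones 22.5 ± 0.707 (SD over 2 clones per genotype), a KO minus WT difference of −3.75 genes against a spread between clones of 1.82. Over all protein-coding genes 65.4 ± 4.02% in WT and 61.6 ± 0.726% in KO had a promoter peak. The untreated library of WT_4 carried much of the HOX difference. Without both libraries of that clone it was −2 genes. The libraries after IFNγ overlapped between genotypes.

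HOX genes whose promoter was open in 2 or more WT libraries beyond their KO count numbered 3 of 38 (HOXA2, HOXB2 and HOXD11), against 4.54% of protein-coding genes. None had the reverse, against 0.556%. HOXA2 and HOXB2 each had a peak in both libraries of WT_4 and in no other, as did 0.26% of coding genes. Fold enrichment at HOXA2 was 7.22 untreated and 4.48 with IFNγ, and at HOXB2 10.2 and 8.54. HOXD11, a gene of forearm and lower limb development, had its peak in both libraries of WT_5 alone, at 8.25 untreated and 8.78 with IFNγ. No promoter of these 3 genes was open in both WT clones, so each difference belonged to 1 clone. Of the 100 regions of the 4 clusters, 22 were found in WT_4 only and 21 in WT_5 only, against 0 in KO_C5 only and 2 in KO_D2 only. Over all 52105 regions the shares were 9.31% for WT_4, 23.4% for WT_5, 6.55% for KO_C5 and 4.18% for KO_D2. None of the 100 was found in all 4 WT libraries and no KO library, against 0.205%, and none the other way round, against 0.0115%.

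**Figure D2:**
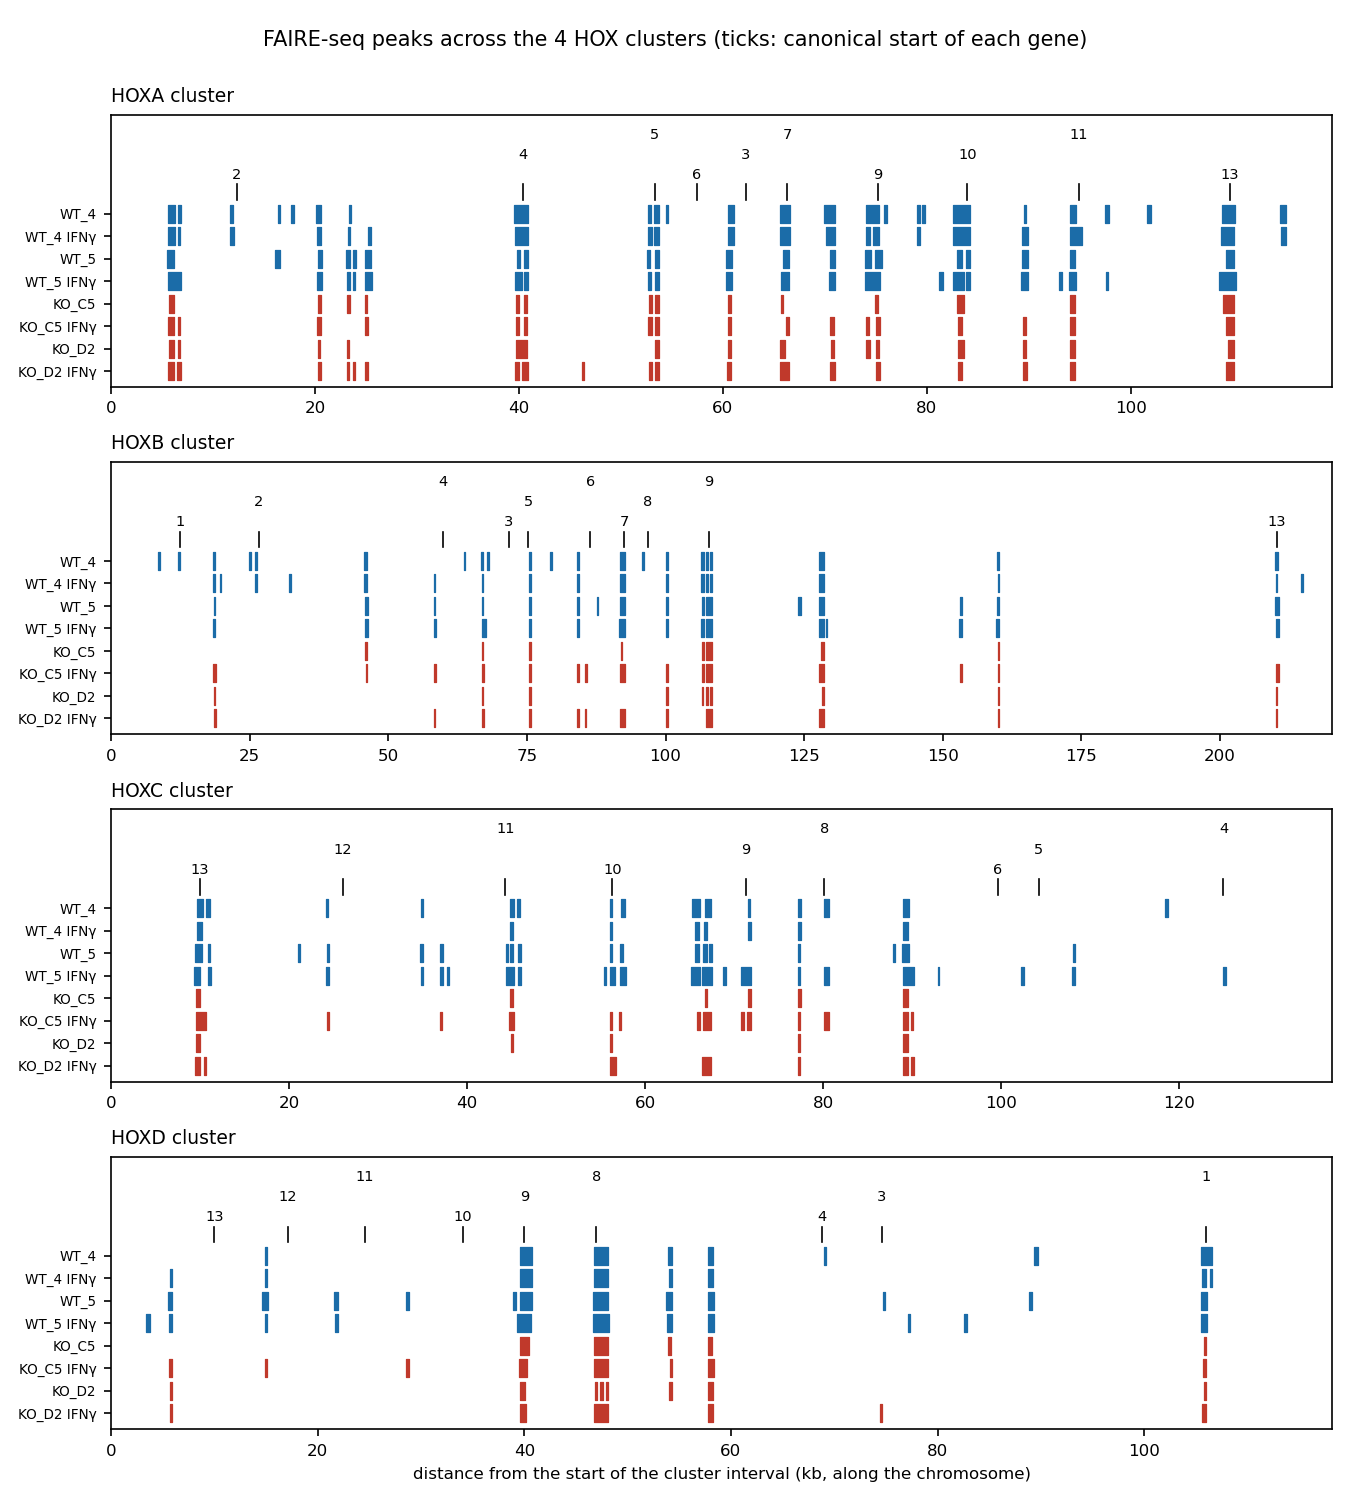
Peaks across the 4 HOX clusters in the 8 libraries, drawn to scale along the distance from the start of each cluster in kb, with 1 track per library (WT blue, KO red) and ticks with the gene number at each canonical start. HOXA carries peaks along most of its length, the HOXD regions shared by all 8 libraries run from HOXD9 to HOXD1, and a long stretch before HOXB13 has few peaks.

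The share of each cluster covered by peaks was lower in the KO clones. In HOXA (chr7:27090354-27210091) peaks covered 12.4% untreated and 11% with IFNγ in WT_4, 8.12% and 11.2% in WT_5, 4.57% and 5.42% in KO_C5 and 5.24% and 6.77% in KO_D2. All 4 WT libraries were above all 4 KO libraries, and the clone means averaged 10.7 ± 1.45% for WT and 5.5 ± 0.711% for KO (SD over 2 clones per genotype). In HOXD (chr2:176082721-176200907) the values were 4.55% and 3.73% in WT_4, 5.55% and 5.33% in WT_5, 2.54% and 3.39% in KO_C5 and 2.06% and 2.79% in KO_D2, and here too the genotypes did not overlap. HOXB (chr17:48518526-48738750) had 3.26 to 3.85% in WT and 1.38 to 3.24% in KO, which did not overlap by a narrow margin. HOXC (chr12:53928831-54066030) had 2.17 to 8.45% in WT and 1.23 to 4.77% in KO, which did. With no flank, with a −log10 q of at least 3 or with lists of equal length, HOXA and HOXD were again without overlap and HOXB was not.

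Tiles of the whole genome shifted the same way, and their median shift was smaller. Of 7910 tiles of 100 kb with a peak in every library, 9.81% had all WT above all KO libraries, against 3 of the 4 clusters, and 0.101% the reverse. The units differ, since the clusters span 118187 to 220225 bp and hold at least 5 peaks in each library. A tile is shorter and needed only a peak in each. The ratio of KO to WT covered length was 0.515 in HOXA, 0.602 in HOXB, 0.496 in HOXC and 0.563 in HOXD, with a median over tiles of 0.804 (quartiles 0.677 to 0.921). With every list cut to its 16730 strongest peaks the ratios were 0.536, 0.644, 0.648 and 0.665, and the median of the tiles was 0.854. On these cut lists 8.97% of tiles had all WT above all KO libraries, against 2 of the 4 clusters. No such share was computed with no flank or with the stricter −log10 q. The whole lists covered 9.56 to 18.3 Mb in WT and 7.57 to 12.8 Mb in KO. Per 10000 bp covered in the list, HOXA held 7.18 to 13.8 bp in WT and 5.09 to 8.29 bp in KO. Only HOXD, at 3.44 to 4.85 bp in WT and 3 to 3.37 bp in KO, kept the genotypes apart on this scale. The margin was narrow, and the share of tiles that did so was not computed.

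**Figure D3:**
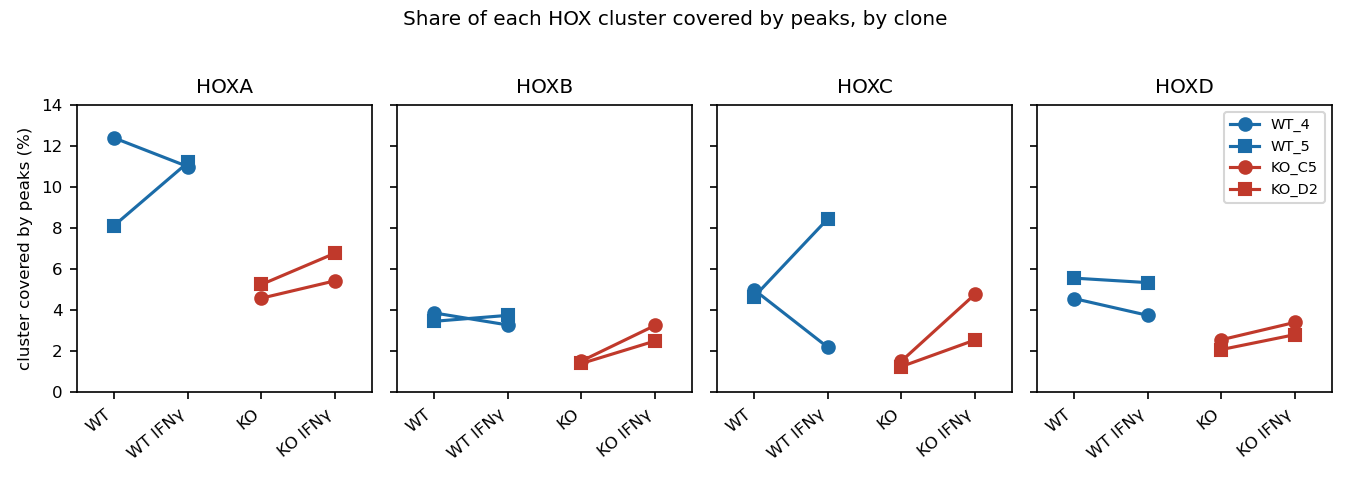
Percent of each HOX cluster covered by peaks in each library (points), by genotype and treatment, with a line joining the pair of libraries from each clone. WT points run from 8.12 to 12.4% in HOXA and KO points from 4.57 to 6.77%, while the groups overlap in HOXC.

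Among the 22 HOX regions with a peak in all 8 libraries, the covered length was greater in all WT than in all KO libraries at 8, against 10.6% of the 11551 regions. The reverse held at 0 of 22, against 0.156%. The median ratio of KO to WT covered length was 0.707 over the 22 and 0.864 over all. By cluster it was 0.663 in HOXA, 0.773 in HOXB, 0.898 in HOXC and 0.699 in HOXD.

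The local background moved in the other direction, and its part in these differences was not tested. It was solved from fold enrichment and −log10 p and is the number of fragments that the caller took as the level around a peak. At 16 of the 22 HOX regions it was higher in all KO than in all WT libraries, as at 58.3% of all regions, and the median KO to WT ratio was 2.15 over the 22 and 1.92 over all. No HOX region had the reverse, against 0.416%. Expressed as a multiple of the lowest level in each library, the median local background in HOXA was 2.15 to 2.38 in WT and 4.91 to 5.33 in KO. In the other 3 clusters it was 1.32 to 1.52 in WT and 2.69 to 3.42 in KO. HOXA stood in the top of its library in both genotypes, above 86.6 to 94% of tiles with at least 5 peaks in WT and 93.8 to 96.7% in KO, whereas HOXB, HOXC and HOXD stood between 28.3 and 70.9%. Within 500 kb on either side of HOXA the level was 1.78 to 2.32 in WT and 2.17 to 5.83 in KO, on only 3 to 14 peaks per library.

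**Figure D4:**
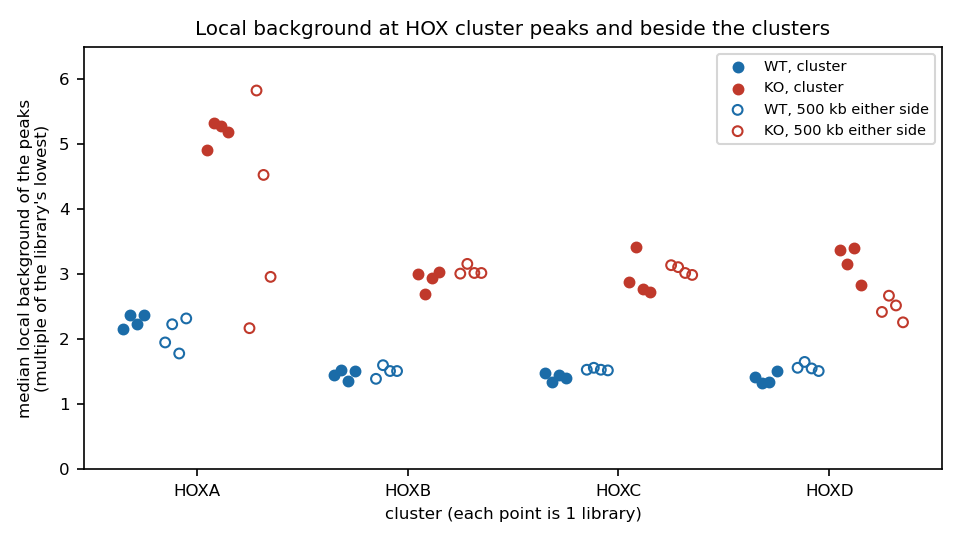
Median local background of the peaks in each HOX cluster and in its flanks, per library, as a multiple of the lowest local background in that library. Filled points are clusters and open points the 500 kb on either side. HOXA lies at 2.15 to 2.38 in WT and 4.91 to 5.33 in KO, above the other clusters in every library.

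The effect of IFNγ on HOX promoters was compared within clones, since the untreated and treated libraries of a clone are paired. With IFNγ the number of HOX genes with a peak went from 31 to 25 in WT_4, from 24 to 25 in WT_5, from 21 to 25 in KO_C5 and from 20 to 24 in KO_D2. The share of all protein-coding genes with a promoter peak moved in the same direction in each clone. It went from 64.4 to 60.6% in WT_4, 66.7 to 69.8% in WT_5, 58.7 to 65.4% in KO_C5 and 59 to 63.1% in KO_D2. Untreated libraries had 24 ± 4.97 HOX genes and IFNγ libraries 24.8 ± 0.5 (SD, n = 4 libraries each, of both genotypes). The difference of 0.75 was below the spread of 3.53 between libraries, a measure that ignores the pairing and the genotype. Within clones the number fell in WT_4 and rose in WT_5, KO_C5 and KO_D2. The sign of the mean difference depended on single libraries. It was 3.08 without the untreated library of WT_4, −0.25 without that of KO_C5 and −0.58 without that of KO_D2. WT_4 lost HOXB1, HOXB3, HOXB6, HOXB8, HOXC8 and HOXD4 and gained none, while WT_5 gained HOXC8. KO_C5 gained HOXB3, HOXB6, HOXB13, HOXC8 and HOXC10 and lost HOXA3, and KO_D2 gained HOXB3, HOXB6, HOXB7, HOXC6 and HOXC9 and lost HOXC11. The only gains common to both KO clones were HOXB3 and HOXB6, through 1 shared weak peak (chr17:48603937-48604358) at fold enrichments of 4.53 and 5.7. No HOX promoter was open in 2 or more IFNγ libraries beyond its untreated count, against 3.51% of coding genes, and none showed the reverse, against 0.656%.

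Peak strength was then tested at the 11551 regions found in all 8 libraries, of which 22 lay in the clusters (10 in HOXA, 5 in HOXB, 3 in HOXC and 4 in HOXD, with the other 78 cluster regions left out for want of a value in some library), on log2 fold enrichment centred on each library's median. No region passed an adjusted p of 0.05 in limma in any of 5 comparisons (0 of 11551 and 0 of 22 in each). In simulated data for KO minus WT untreated, this fit recovered 0% of regions with a true log2 change of 1. It recovered 38% of those with a change of 2, so a region without a call may still differ. At an unadjusted p under 0.05, limma gave 859 regions (7.44%) for KO minus WT without treatment, 985 (8.53%) with IFNγ, 126 (1.09%) for IFNγ in WT, 341 (2.95%) for IFNγ in KO and 96 (0.831%) for the interaction. The HOX regions among them numbered 1, 4, 0, 0 and 0. This fit did not use the pairing of libraries by clone. With the clone as a block, limma gave 601 regions (5.2%) for IFNγ in WT at the same unadjusted threshold. It gave 2017 (17.5%) for IFNγ in KO and 768 (6.65%) for the interaction. The HOX regions among these numbered 2, 1 and 3 of 22, and none passed the adjusted threshold. The HOX differences for KO minus WT had a median of −0.22 untreated and −0.37 with IFNγ, with 15 of 22 below 0 in each, against medians of 0.03 and −0.01 over all regions, where 52.7% and 48.9% were above 0. The 2 comparisons use separate libraries of the same clones. Without centring the median over all regions was −0.60 and −0.50, with only 8.93% and 14.8% of all regions above 0. All 22 HOX values were below 0 in both. The untreated median rested on 1 library, since without the untreated library of WT_4 it was 0.07, with 10 of 22 below 0. The median with IFNγ was −0.18 without the treated library of KO_C5, −0.22 without that of WT_4 and −0.59 without that of WT_5. On log2 summit pileup the HOX medians were −0.13 untreated and −0.17 with IFNγ. By percentile of −log10 p, 21 and 18 of 22 were below 0, against all-region medians of −7.78 and −0.96 percentile points. Of all regions 11.9% and 43.2% were above 0 on that scale. For IFNγ minus untreated the HOX median was 0.06 in WT, with 11 of 22 above 0, and −0.04 in KO, with 10 of 22 above 0. Over all regions the medians were −0.01 and −0.14, with 48.1% and 37% above 0. By percentile of −log10 p 18 of 22 HOX values for IFNγ in KO were above 0, against 78.8% of all regions.

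The regions with the lowest p in the genotype comparisons were 4. The first lies in an exon of HOXA3 and HOXA-AS2 (chr7:27110468-27110994), 3097 bp from the nearest HOXA3 start. Its fold enrichment was 37.8 and 23.9 in WT_4, 28.8 and 42.1 in WT_5, 16 and 14.2 in KO_C5 and 13.4 and 9.24 in KO_D2, so all WT values were above all KO values. The KO minus WT difference on the log2 scale was −0.54 ± 0.25 untreated (SE, limma adjusted p = 0.662) and −0.98 ± 0.25 with IFNγ (limma adjusted p = 0.576). This region, the next and the HOXA7 promoter are the 3 whose centred values did not overlap between genotypes.

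The second lies in an intron of the noncoding gene LINC02086 between HOXB9 and HOXB13 (chr17:48678217-48678748). Its fold enrichment was 30 and 26.2 in WT_4, 18.7 and 24.3 in WT_5, 8.3 and 9.08 in KO_C5 and 9.59 and 8.06 in KO_D2, again without overlap. The log2 difference was −0.78 ± 0.35 untreated (limma adjusted p = 0.66) and −1.07 ± 0.35 with IFNγ (limma adjusted p = 0.576). The local level at this site was 0.755 to 1.25 fragments for WT libraries and 2.13 to 3.47 for KO libraries, and the summit pileups were 41 to 53 and 26 to 35.

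The third is the HOXA7 promoter (chr7:27155966-27156972), with fold enrichments of 12 and 10.5 in WT_4, 9.82 and 13.3 in WT_5, 4.81 and 4.97 in KO_C5 and 4.07 and 5.13 in KO_D2. The KO values were below all WT values, and the log2 difference was −0.67 ± 0.29 untreated (limma adjusted p = 0.658) and −0.74 ± 0.29 with IFNγ (limma adjusted p = 0.582). The fourth is the HOXD1 promoter (chr2:176188200-176189325), at −0.70 ± 0.29 untreated (limma adjusted p = 0.658) and −0.16 ± 0.29 with IFNγ (limma adjusted p = 0.892). Here WT libraries had a local background of 0.774 to 1.29 fragments and KO libraries one of 2.13 to 3.2. None of the 4 differences passed the threshold.

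For IFNγ in WT the lowest p among HOX regions belonged to an intronic region of HOXB3 (chr17:48585325-48586166), at 0.76 ± 0.35, the HOXD1 promoter, at −0.55 ± 0.29, and the HOXB9 promoter, at 0.45 ± 0.32, each with a limma adjusted p of 1. The HOXB3 region had fold enrichments of 25.4 and 26.2 in WT_4 and 11.5 and 29.7 in WT_5. On the centred scale it went from −0.44 to 0.21 in WT_4 and from −1.18 to −0.32 in WT_5, so both WT clones were higher with IFNγ. For IFNγ in KO they were the HOXA3 exon region, at −0.45 ± 0.25, the HOXA9 promoter, at 0.90 ± 0.56, and a region at the starts of LINC02086 and LINC03057, at −0.55 ± 0.39, with a limma adjusted p of 0.808 each. At the HOXA9 promoter (chr7:27164306-27165922) fold enrichment was 15.4 and 9.4 in WT_4, 16.1 and 20.3 in WT_5, 3.89 and 11.8 in KO_C5 and 11.5 and 15.1 in KO_D2. At the LINC starts (chr17:48646146-48647114) it was 31.5 and 19.9 in WT_4, 13.8 and 25.7 in WT_5, 24.6 and 15.6 in KO_C5 and 11.8 and 9.85 in KO_D2, so both KO clones were lower with IFNγ and the WT clones differed in sign. The interaction was nearest to the threshold at HOXA11 (−0.84 ± 0.53), HOXA9 (1.04 ± 0.79) and HOXA6 (−0.80 ± 0.60), each with a limma adjusted p of 1. At HOXA11 (chr7:27184344-27185542) fold enrichment was 10.9 and 11 in WT_4, 6.12 and 9.54 in WT_5, 7.73 and 5.16 in KO_C5 and 5.64 and 5.04 in KO_D2. At HOXA6 (chr7:27150645-27151463) it was 34.7 and 25.7 in WT_4, 11.6 and 26.2 in WT_5, 13.4 and 11.3 in KO_C5 and 13.3 and 10.6 in KO_D2. On the centred scale both WT clones were higher and both KO clones lower with IFNγ at HOXA11 and HOXA6. At HOXA9 both WT clones were lower and both KO clones higher. HOXA11 went from −1.67 to −1.05 in WT_4, from −2.09 to −1.96 in WT_5, from −1.41 to −2.25 in KO_C5 and from −1.69 to −1.79 in KO_D2. The regions of this paragraph were picked by their p in these same data, which favours clones that agree in sign. The share of all regions with such patterns of sign was not computed.

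**Figure D5:**
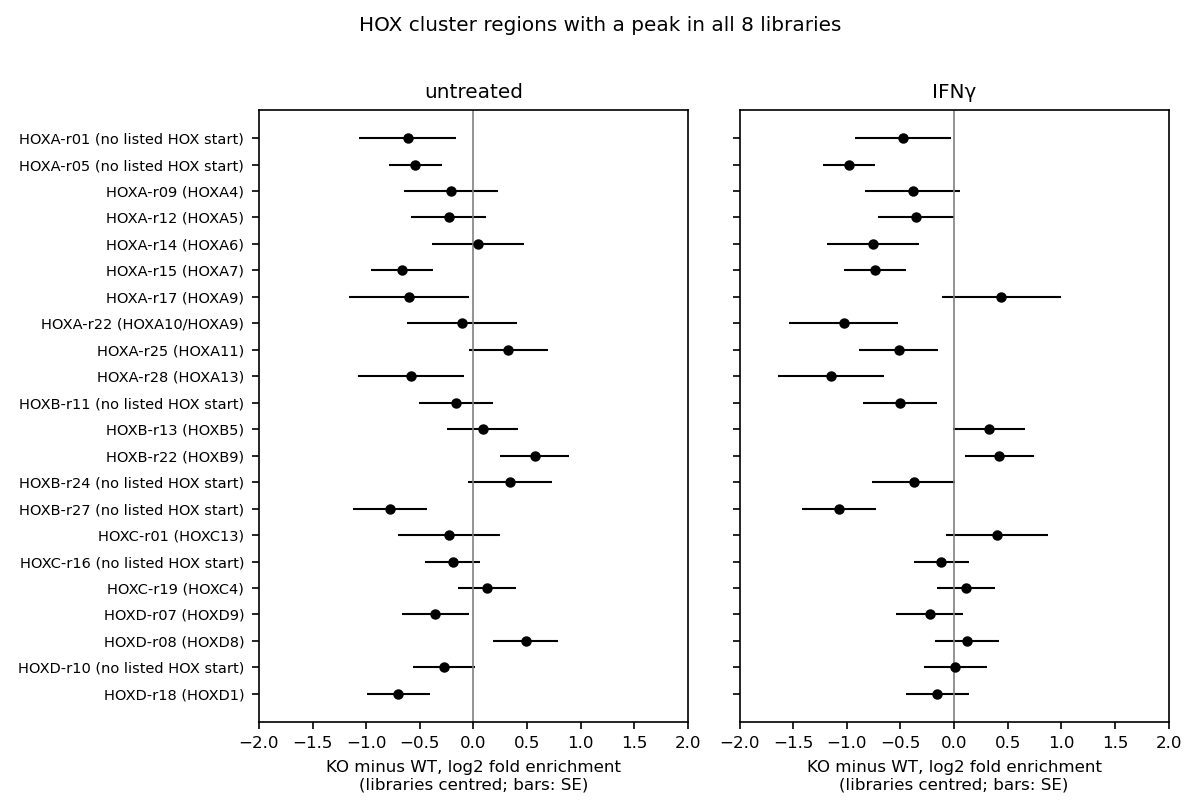
Difference in log2 fold enrichment (centred) at the 22 HOX regions found in all 8 libraries for KO minus WT, untreated and with IFNγ, with bars of 1 SE and regions numbered along each cluster. Values run from −0.78 to 0.57 untreated and from −1.15 to 0.44 with IFNγ, and none passed an adjusted p of 0.05 in limma.

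Outside promoters, 34 of the 100 cluster regions were over 1 kb from any named TSS and 5 of these had a peak in all 8 libraries. Besides the HOXA3 exon, LINC02086 intron and HOXB3 intron regions they were an intron of HOXC6 near HOXC8 (chr12:54005996-54006328) and the HOXD3 intron whose sequence is printed above. The HOXD3 intron region had fold enrichments of 22.9 and 9.91 in WT_4, 16.1 and 23.6 in WT_5, 10.6 and 11.5 in KO_C5 and 9.91 and 10.4 in KO_D2. WT and KO overlapped through the IFNγ library of WT_4.

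Of 23 noncoding genes of the clusters, 7 had a peak within 1 kb of a start in all 8 libraries, 9 in some and 7 in none. Among protein-coding genes 52.1% had a peak in all 8 and 26.2% in none. HOXC13-AS, HOTAIRM1 (next to the anterior end of HOXA), HOXA-AS3 and HOTTIP (at the posterior end of HOXA, described as an activator of the posterior HOXA genes) had mean percentiles of 90.2, 78.7, 78.1 and 76. HOTAIR, transcribed from HOXC and described as a partner of Polycomb complexes at HOXD, had a peak in 7 libraries, 4 WT and 3 KO. Several starts share their peak with a HOX gene, such as HOXC13-AS with HOXC13.

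Genes for partners and regulators of HOX proteins were counted for comparison. Of all protein-coding genes, 52.1% had a promoter peak in all 8 libraries and 26.2% in none. A peak in at least 2 more WT than KO libraries was seen at 4.54%. All 18 Polycomb genes had a promoter peak in all 8 libraries, with RBBP4 at a mean percentile of 98.7 and CBX6 at 98, as did 12 of 13 trithorax and insulator genes, with CTCF at 98.8. Of 9 cofactor genes of the PBX, MEIS and PKNOX families, whose products bind DNA with HOX proteins, 5 had a peak in all 8, such as PKNOX1 at a mean percentile of 95.8 and MEIS1 at 81.4. The ParaHox genes, the sister set of the HOX clusters, had 2 of 6 at all 8 libraries. Of 56 other developmental homeobox genes 17 had a peak in all 8 libraries, 30 in some and 9 in none, and 9 had a peak in at least 2 more WT than KO libraries. Among 15 matched neighbours of the clusters, 7 promoters were open in every library and 4 in none.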

How the data were processed

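FAIRE-seq was analysed in 8 U2OS libraries, 2 clones of each genotype, untreated and after IFNγ. IFNγ was applied for 24 hours per the labels and for longer per a figure legend of the study, so its duration is uncertain. The authors trimmed reads with Trimmomatic, aligned them with Bowtie2 2.2.5 to GRCh38, filtered them on mapping quality (SAMtools 1.14) and ran MACS2 2.2.7.1 on each library alone (versions from the submitters' processing notes). The use of input DNA as control and the handling of duplicates are not given in the sources used here. The deposited fold enrichment is a ratio of summit pileup to local background, and the deposited −log10 p and −log10 q come from the same caller. The deposited score was not used, and the summit offset was used as deposited.

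From these, promoter peaks were counted within 1 kb of GENCODE 44 starts, peaks that overlapped by 1 bp or more were merged to regions, and the Poisson model of the caller was inverted on fold enrichment and −log10 p to give the pileup and local background, with a tolerance of 0.1%. A percentile ranks −log10 p within a list. Log2 fold enrichment, centred per library, was fitted with limma 3.58.1 (R 4.3.3) over 4 groups sharing one spread, with Benjamini-Hochberg adjustment over 11551 regions. Other steps used Python 3.11.15. The code was tested on simulated data. P-values reflect the spread between libraries of 2 clones.

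The members and lists were chosen with earlier results of these data known, so no test was made over a list. Values per library are given for the 2 genes of each cluster with peaks in the most libraries (ties by mean percentile), for genes that differed by at least 2 libraries between genotypes or treatments, and for the 3 cluster regions with the lowest p in each comparison. HOXA13, HOXA7, HOXB13, HOXD3 and the HOXD3 intron region were added after their values were seen. For other lists up to 4 genes are named.

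The clone label pairs untreated with IFNγ libraries. Their deviations from the group means had r = 0.692 between the WT pairs and r = 0.394 between the KO pairs over 11551 regions. WT and KO share only a number. Alternatives were other promoter windows, canonical starts, stricter peaks, lists of equal length, no flank, uncentred values, percentiles, pileups, summit windows, the clone as a replicate block and omission of libraries. One HOX gene of the A cluster is not reported here.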

Additional observations from a re-analysis of the deposited data

Results flagged for a closer look

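The untreated library of WT_4 had 31 HOX genes with a promoter peak, where the other 3 WT libraries had 24 or 25. The gap to the nearest library was 0.857 of the range of the group, above Dixon's 95% critical value for 4 samples. HOXB1, HOXB8 and HOXD4 had a promoter peak in this library alone.

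Among the 4 IFNγ libraries, that of KO_D2 had 24 HOX genes and the other 3 had 25, so a gap of 1 gene made up the whole range. In all, 20 groups of 4 libraries were examined, and chance alone gives about 1 such library in 20 groups.

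The share of HOXD covered by peaks was higher with IFNγ in both KO clones, by 0.85 percentage points in KO_C5 and 0.73 in KO_D2, and was lower with IFNγ in both WT clones, at −0.82 in WT_4 and −0.22 in WT_5. The mean difference between genotypes was 1.31 percentage points, and it was not tested. Opposite directions of this kind were looked for in 5 results, and the share of tiles showing them was not computed. The whole lists also grew with IFNγ in the KO clones, from 8.91 to 12.8 Mb in KO_C5 and from 7.57 to 11 Mb in KO_D2. Per 10000 bp covered in the list, HOXD was lower with IFNγ in both KO clones (3.37 to 3.14 bp and 3.22 to 3 bp). On that scale the WT clones differed in sign, at 4.27 to 4.61 bp in WT_4 and 4.85 to 3.44 bp in WT_5.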

How the results depend on the processing

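The number of HOX genes with a peak in all 8 libraries stayed between 12 and 20 under every alternative run. The number with a peak in none went from 6 to 1 with a window of 2.5 kb, to 11 with canonical starts, to 12 with lists of equal length and to 11 without both libraries of WT_4, an omission chosen after seeing the data. It was 9 without the untreated library of WT_4. The KO minus WT difference of −3.75 genes was −6.75 with a window of 2.5 kb, and −2.25 to −5.25 on leaving out single libraries. With lists of equal length the mean covered share was 8.24% (WT) and 4.42% (KO) in HOXA, 2.77% and 1.78% in HOXB and 3.68% (WT) in HOXD. The WT share of HOXB, whose clones differ little, was 3.7% with no flank, 3.4% with a −log10 q of at least 3 and 3.42 to 3.72% on leaving out a library, and its KO share was 1.72 to 2.59% on such omissions, which were added after seeing the data.

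In limma, uncentred values gave 7 regions past the threshold for KO minus WT untreated and 2 with IFNγ, none of them in a HOX cluster. With the clone as a replicate block 1 region was called for IFNγ in WT, outside the clusters, and no other call changed. The 15 named region differences were picked by the lowest p in these same data. Omitting a library outside a comparison cannot change its estimate, so a kept direction there was fixed in advance. Of these 15, 14 kept their direction under all alternatives and the region at the starts of LINC02086 and LINC03057 went from −0.55 (log2) for IFNγ in KO to 0.833 percentile points, on ranks of −log10 p. The causes of these shifts were not tested. Peak lists hold only sites past the caller's threshold, so weak openness at HOX genes without a peak was not detectable here.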
